A study of Mus musculus with 3 samples.

Results

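Mouse mammary cells positive for CD36 were compared with cells negative for it, both sorted as negative for podoplanin (PDPN), across the genes of 1 bulk RNA library from each population. Of 52661 gene identifiers, 21786 were protein-coding, and 2284 of these had a mean of at least 80 CPM (counts scaled to the size of the library, here after TMM scaling) over the pair. Of the 2284, 309 were at least 2-fold apart, which is 13.5%. In the CD36-positive library 202 were higher (8.84%) and 107 were lower (4.68%). Only 80 of the 202 and 33 of the 107 had at least 80 CPM in both libraries. The others reached the mean through the library where they were higher. The genes that were lower carried the wider ratios: 11 of them differed by at least 10-fold, against 3 of the genes that were higher. They included genes of high endothelial venules (Glycam1, Ccl21a, Enpp2, Gcnt1) and of MHC class II presentation, while genes of capillary endothelium and fatty acid handling (Fabp4, Rgcc, Plin2) were higher by smaller factors.

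The study, whose title names TCF4 and ID3 in connection with mammary epithelial stem cell differentiation, deposited 3 bulk libraries. The CD36+ library came from cells given as EpCAM positive, high for CD49f, CD36 positive and PDPN negative, with a title of Cdh5 positive and Cd36 positive. The double-negative library came from the same gate with cells negative for CD36 and PDPN, titled Cdh5 positive and Cd36 negative. The PDPN+ library, from CD36-negative, PDPN-positive cells titled Cdh5 negative, is given here only as a reference level. All 3 carry a label of PROCR-positive (the receptor of protein C) mammary epithelium and name no treatment, and the labels used here name no strain, age or number of animals. Each population had 1 library, to which every value given for its cells refers, so no value has a replicate error, no test between populations was possible, and every ratio compares 2 libraries. Intervals beside folds are exact 95% counting intervals, which cover counting error only.

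CD36 is a scavenger receptor that takes up long-chain fatty acids, and in many tissues it marks the endothelium of capillaries, where it works with fatty acid binding proteins and with lipases held on the vessel wall. High endothelial venules are the vessels through which lymphocytes leave the blood. Their cells make sulfated, fucosylated sugars that L-selectin binds, present the chemokine CCL21 and secrete autotaxin, and they are best known from lymph nodes. EpCAM and integrin alpha 6 (CD49f) are used together to gate mammary epithelium, and integrin alpha 6 is also found on endothelium.

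Total estimated counts were 67675778 in CD36+ cells, 51138993 in double-negative cells and 63871266 in PDPN+ cells, so that 3 counts, taken as the detection floor, stand for 0.0507, 0.0594 and 0.0406 CPM. Some of the most abundant transcripts, such as Fabp4, Cd36 and Glycam1, differed and are described below, while other abundant endothelial transcripts were close in the pair. Pecam1, which holds endothelial cells together, was at 1475 CPM in CD36+ cells and 1165 in double-negative cells, and the venular chemokine-binding receptor Ackr1 at 18761 and 17174. The 25 pan-endothelial genes listed, of which 20 reached the level minimum, summed to 10821 CPM in CD36+ cells, 7447 in double-negative cells and 219 in PDPN+ cells. Basal epithelial genes summed to 474, 687 and 9277 CPM in the same order. Against the epithelial label, both PDPN-negative libraries therefore held mainly endothelial markers, and they are named by their sort gates throughout.

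The sort genes followed the gates only in part. Cd36 stood at 4766 CPM in CD36+ cells, 1523 in double-negative cells and 45.1 in PDPN+ cells, a ratio of 3.13 between the first pair (3.105 to 3.15). It ranked 13th among protein-coding genes of the CD36+ library and 59th in double-negative cells, so the library sorted as CD36 negative was not low in its transcript. Cells were sorted on the CD36 protein, so this difference was chosen by the gate and is given as a check. Cdh5, the endothelial cadherin of both titles, stood at 465 and 206 CPM, 2.26-fold apart (2.21 to 2.31). Procr stood at 746 and 528 CPM and Itga6 at 436 and 399 CPM, both within 2-fold. Epcam was lower in CD36+ cells, at 50.7 against 104 CPM (2.04-fold, 1.95 to 2.14), and Pdpn stood at 12.5 against 32.3 CPM. Those 2 genes missed the level minimum.

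Ratios were narrow among abundant genes. Of the 2284 genes, 86.5% lay within 2-fold, and the median log2 ratio was 0.20, a 1.15-fold excess in CD36+ cells, with 64.1% of genes above 0. The median and the balance of calls depended on the scaling. With total counts as the scale the median was 0.01, with 107 genes higher and 142 lower. With ratios centred on their own median, a choice made after seeing the data, the numbers were 130 and 156. The share of calls that were higher therefore went from 65.4% to 43.0% or 45.5%, and no excess in either direction is read from the counts. Among the higher genes the median fold was 2.43, 52 reached 3-fold and 20 reached 4-fold. Among the lower genes the median fold was 2.81, 51 reached 3-fold and 34 reached 4-fold. The genes nearest the threshold were Pgrmc1 (172 against 86.0 CPM) inside and the actin gene Actb (2087 against 1045 CPM) outside on the higher side, and Katnbl1 (70.7 against 142 CPM) inside and Asxl2 (59.3 against 118 CPM) outside on the lower side.

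**Figure D1:**
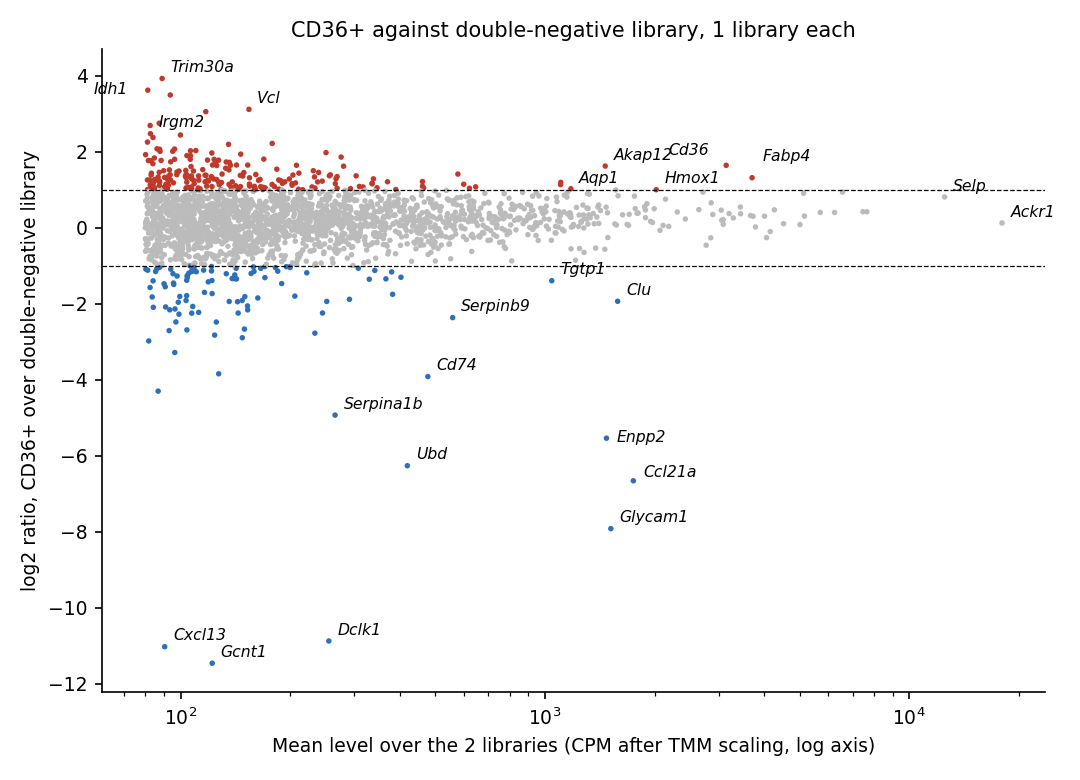
Log2 ratio of the CD36+ over the double-negative library (vertical axis) against mean level in CPM (horizontal log axis) for the 2284 protein-coding genes at or above a mean of 80 CPM, 1 library each. Red points are the 202 genes at least 2-fold higher in CD36+ cells, blue points the 107 at least 2-fold lower, and dashed lines mark 2-fold; Gcnt1, Cxcl13, Dclk1, Glycam1, Ccl21a, Ubd and Enpp2 lie farthest below.

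The level minimum matters because ratios widened at low levels. At a mean of 80 to 160 CPM, 19.9% of genes were at least 2-fold apart, and at 320 CPM and over 5.71% were. Between 40 and 80 CPM the share was 32.2%, between 10 and 20 CPM it was 60.9%, and between 1 and 5 CPM it was 71.6%. With no replicate, the part of this spread that comes from making the libraries was not tested. Genes under 80 CPM are therefore given below only as values, and gene groups are described first at the level minimum.

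**Figure D2:**
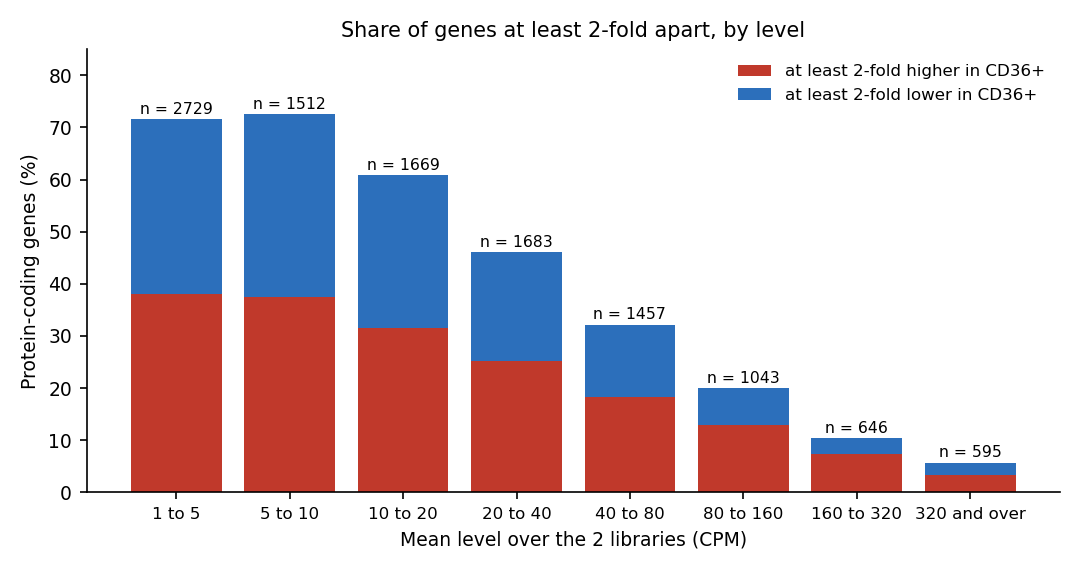
Share of protein-coding genes (vertical axis, percent) that were at least 2-fold higher (red) or lower (blue) in CD36+ cells, by mean level of the pair in CPM, with the number of genes above each bar. The share falls from 71.6% at 1 to 5 CPM to 5.71% at 320 CPM and over.

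Genes of high endothelial venules showed the widest differences. Of 12 listed genes 7 reached the level minimum, 4 were at least 2-fold lower in CD36+ cells and 0 higher, with a median log2 ratio of -5.53 beside 0.20 over all genes tested. Those 4 were under 80 CPM in CD36+ cells and passed the minimum through the double-negative library, so the count and median only describe them. Glycam1 (chromosome 15, 103562759 to 103565081, minus strand of mm10), a secreted mucin that carries L-selectin ligands, stood at 12.5 CPM in CD36+ cells, 3021 in double-negative cells and 12.3 in PDPN+ cells. It was 242-fold lower in CD36+ than in double-negative cells (225 to 260.1), where it ranked 22nd of all protein-coding genes. Ccl21a (chromosome 4, 42772860 to 42773993, minus strand), the chemokine that draws CCR7-positive lymphocytes and dendritic cells, stood at 34.4, 3463 and 39.8 CPM in the same order, 101-fold lower (96.5 to 105). The mouse genome holds near-identical Ccl21 copies, so the split of reads among them is uncertain. Enpp2 (chromosome 15, 54838901 to 54952892, minus strand), which encodes autotaxin, the enzyme that makes lysophosphatidic acid, stood at 62.3, 2889 and 268 CPM, 46.4-fold lower (44.9 to 47.9). The double-negative library was the highest of the 3 in each of these genes, and the other 2 libraries lay near each other except for Enpp2. As these are bulk samples, fewer cells of a type and less RNA per cell cannot be told apart.

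The enzymes that build the L-selectin ligand divided. Gcnt1 (chromosome 19, 17326141 to 17372844, minus strand), which adds the branch of core 2 O-glycans, had 3 counts in CD36+ cells (0.0507 CPM), 244 CPM in double-negative cells and 16.7 CPM in PDPN+ cells, a ratio of 4821 (1649 to 23378). Below the level minimum, the sulfotransferase gene Chst4 had 1 count in CD36+ cells and 94.5 CPM in double-negative cells. Fut7, whose product adds the fucose of the ligand, had 0 counts and 49.1 CPM, at least 969-fold lower in CD36+ cells against the floor of 3 counts there. In contrast, the second sulfotransferase Chst2 stood at 117 and 108 CPM, and the sialyltransferases St3gal6 and St3gal4 at 308 and 429.7 and at 97.1 and 97.1 CPM, all within 2-fold. Madcam1, an addressin of gut-associated venules, stood at 6.15 CPM in CD36+ cells and had 2 counts in double-negative cells. At a mean of at least 10 CPM, where 36.2% of protein-coding genes were 2-fold apart (20% higher and 16.2% lower), 6 of 10 listed genes were lower and 0 higher. The 4 calls held under each scaling and by the deposited TPM.

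**Figure D3:**
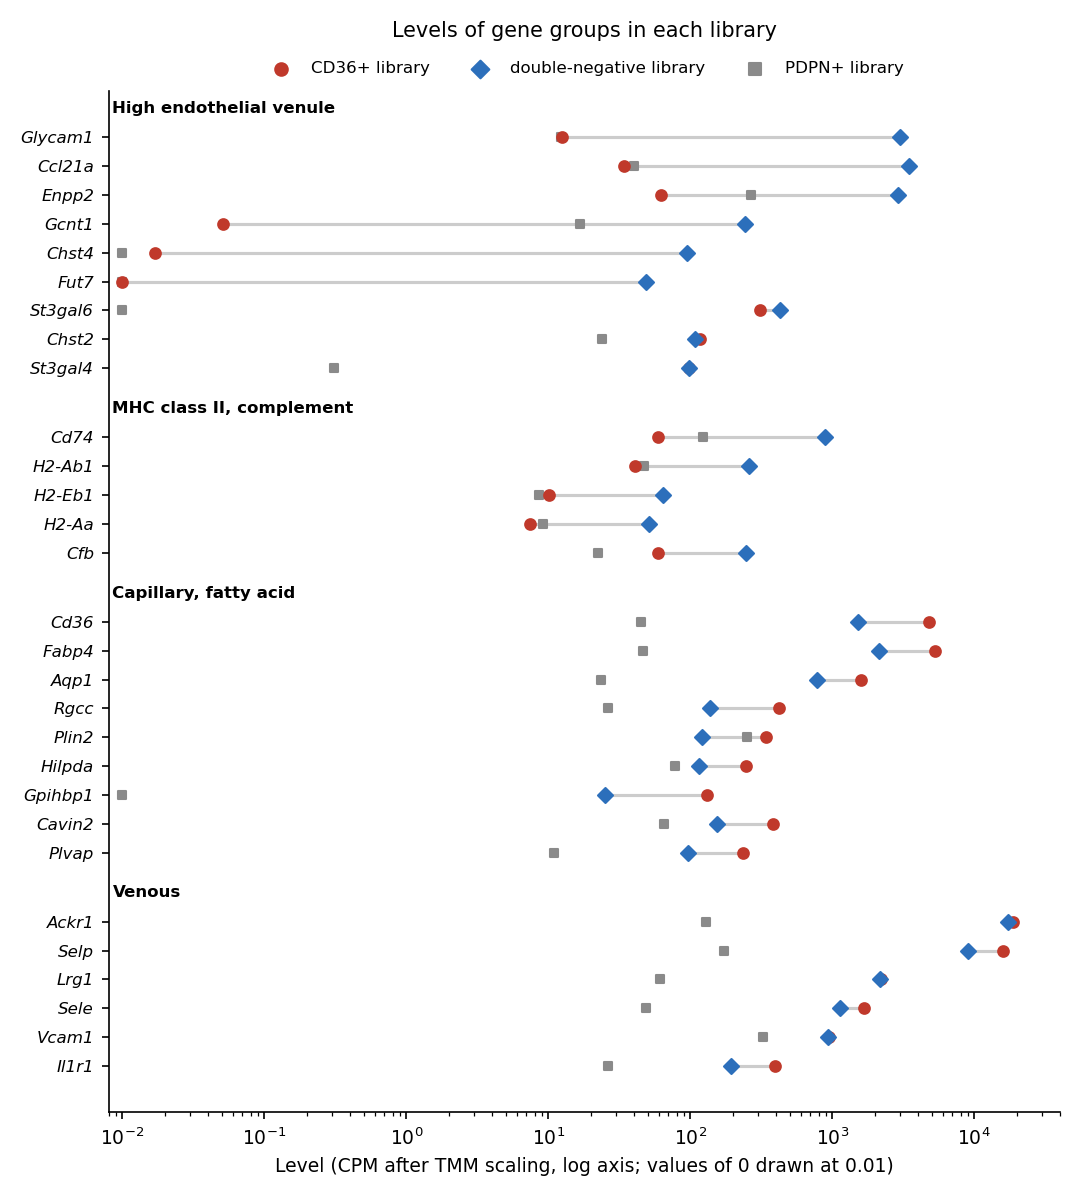
Level of gene groups in CPM (horizontal log axis) in the CD36+ (red circle), double-negative (blue diamond) and PDPN+ (grey square) libraries, 1 library each, with a line joining the first pair. Glycam1, Ccl21a, Enpp2 and Gcnt1 are highest in double-negative cells, while Ackr1, Lrg1 and Vcam1 nearly coincide in the pair.

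Markers of other cells that also carry these genes were checked. Glycam1 is also a whey protein of the lactating gland, and among other milk genes the casein Csn2 stood at 11.4 against 2.0 CPM and Csn3 at 31.7 against 16.7 CPM in the CD36+ and double-negative libraries. Of 3 alveolar and milk genes at the level minimum 1 was lower, Mfge8, a milk fat globule protein that many cells make, at 66.6 against 234 CPM. Ccl21a also marks lymphatic endothelium: the 12 lymphatic genes listed summed to 156 CPM in CD36+ cells and 3667 in double-negative cells with Ccl21a counted among them, and 3 of the 12 were under 1 CPM in both. At a mean of at least 10 CPM, where 16.2% of all genes were lower, 3 of 5 were lower and 0 higher. The 3 were Ccl21a, Pdpn and the peptide gene Nts (26.2 against 76.04 CPM). The lymphatic transcription factor gene Prox1 stood at 18.1 and 21.1 CPM, within 2-fold, Mmrn1 at 0 and 15.4 CPM, and the lymphatic receptor Lyve1 had 1 and 2 counts. The part of these cells in the result was not tested.

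MHC class II genes, which present peptides to CD4-positive T cells, were lower in CD36+ cells. Of 12 listed genes 2 reached the level minimum and both were called, with a median log2 ratio of -3.29. Both were under 80 CPM in CD36+ cells and passed the minimum through the double-negative library, so this count and median only describe them. Cd74, the invariant chain, stood at 59.4 CPM in CD36+ cells, 895 in double-negative cells and 123 in PDPN+ cells, 15.1-fold lower (14.6 to 15.6). H2-Ab1 stood at 40.8, 259 and 47.4 CPM, 6.34-fold lower (6.07 to 6.62). The chains below the level minimum went the same way, with H2-Eb1 at 10.1 against 64.2 CPM and H2-Aa at 7.48 against 51.1 CPM. All 5 listed genes at or above a mean of 10 CPM were lower, beside 16.2% of all genes at that level. By contrast, 0 of 12 genes of the MHC class I pathway were 2-fold apart in either direction (median log2 ratio -0.11), with B2m at 4012 and 4294 CPM and H2-D1 at 1386 and 1175 CPM.

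Immune cells also carry MHC class II, so their markers were read beside it. The common leukocyte gene Ptprc stood at 1.098 and 0.9705 CPM. Of 20 macrophage genes, 13 were under 1 CPM in both, 9 were at 0 in CD36+ cells and 8 in double-negative cells, and the list summed to 970 and 878 CPM, nearly all of it Cd14 (929 and 779.9 CPM). Fcer1g stood at 21.4 against 57.4 CPM, and Ctss, a cathepsin that trims the invariant chain, at 1 count against 23.6 CPM. Lymphocyte genes summed to 53.3 and 43.6 CPM. Of the mural cell genes, Rgs5 stood at 241 and 164 CPM and Steap4 was lower, at 129 against 261 CPM. Their part in the result was not tested.

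Some genes of complement and some serpins were lower in CD36+ cells as well. Of 17 complement genes 3 reached the level minimum, and 2 were lower, beside 4.68% of all genes tested. Among the 2 was Cfb, a protease of the alternative pathway, at 59.3 against 246 CPM (4.15-fold, 3.999 to 4.31). Cfb passed the minimum through the double-negative library. The membrane inhibitor Cd55 stood at 82.5 and 97.3 CPM. Clu, a secreted chaperone that also binds late complement components, was among the most abundant genes called, at 658 against 2509 CPM and 186 CPM in PDPN+ cells (3.82-fold, 3.77 to 3.86). Serpins are inhibitors that trap their target proteases, and the family was grouped after its values were seen. Of 6 serpin genes at the level minimum 3 were lower and 0 higher, beside 4.68% and 8.84% of all genes tested. Serpinb1a and Serpina1b were under 80 CPM in CD36+ cells and passed the minimum through the double-negative library. Serpinb9, an inhibitor of granzyme B, stood at 182 against 935 CPM (5.14-fold, 5.04 to 5.25), and Serpinb1a, an inhibitor of neutrophil proteases, at 59.7 against 408 CPM. Serpina1b, a gene of alpha-1-antitrypsin, stood at 16.9 against 514 CPM, and its near-identical copies Serpina1a, Serpina1c and Serpina1d at 1.79, 1.20 and 1.06 against 64.3, 68.3 and 32.1 CPM. Reads may be split among these copies in error, but every copy named was low in CD36+ cells. Serpinh1, a collagen chaperone of the family, went the other way within 2-fold, at 129 against 67.3 CPM.

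Further genes with wide ratios belonged to none of these groups. Cxcl13, the chemokine that attracts B cells, had 3 counts in CD36+ cells, 181 CPM in double-negative cells and 588 CPM in PDPN+ cells. Dclk1, a microtubule-linked kinase, stood at 0.236, 510.3 and 456 CPM. In both genes the CD36+ library was the low one and the other 2 were high. Ubd, an interferon- and TNF-induced ubiquitin-like modifier, was instead high in the double-negative library alone, at 828 CPM against 10.8 and 9.74 CPM (76.8-fold below it in CD36+ cells, 71.01 to 83.2). Bst1, an ectoenzyme that cleaves NAD, and Pglyrp1, which binds bacterial peptidoglycan, followed that second pattern, at 17.97 against 175 CPM and 24.7 against 161 CPM. Among the 20 widest ratios were also Itch, a ubiquitin ligase, Pcdh7, a protocadherin, and Top2b, a topoisomerase, between 7.08-fold and 7.88-fold lower, beside Dsg2, Birc2 and Sfn, which are described below.

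Hemostasis genes were split. Of 11 vasoactive and hemostasis genes 2 were lower and 0 higher, beside 4.68% and 8.84% of all genes tested. Tfpi, the inhibitor of the tissue factor pathway, stood at 85.7 CPM in CD36+ cells, 405 in double-negative cells and 2.23 in PDPN+ cells (4.73-fold, 4.58 to 4.87). Ptgs2, the inducible cyclooxygenase, stood at 33.97 against 164 CPM and passed the level minimum through the double-negative library. Thrombomodulin (Thbd), von Willebrand factor (Vwf) and the adrenomedullin receptor Calcrl were within 2-fold, at 1276 and 748, 724 and 518 and 923 and 1159.9 CPM. Genes of cell survival also divided: of 4 inhibitors of apoptosis, a family grouped after seeing the values, Birc2 and Birc3 were lower and Xiap was higher in CD36+ cells. Birc2 stood at 27.99 against 180.2 CPM, its neighbour on chromosome 9 Birc3 at 91.9 against 192 CPM, and Xiap at 373 against 142 CPM. The Birc3 call was lost by the deposited TPM. Casp8, a caspase of death receptor signalling, was higher, at 437 against 169 CPM.

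Basal epithelial transcripts were mostly at low levels in the pair, summing to 474 CPM in CD36+ cells and 687 CPM in double-negative cells. More of the listed genes were lower than higher in CD36+ cells. Of 15 listed genes only 2 reached the level minimum, and they went opposite ways. Sfn, an epithelial 14-3-3 protein, stood at 38.1 CPM in CD36+ cells, 213 in double-negative cells and 2108 in PDPN+ cells (5.58-fold lower, 5.33 to 5.84). Dst, a cytoskeletal linker, stood at 362, 176 and 875 CPM, and its call was lost with total counts. Krt14, a basal keratin, stood at 0.186, 123 and 1425 CPM, and the basal transcription factor gene Trp63 had 3 counts in CD36+ cells, with 34.1 CPM in double-negative cells and 1753 CPM in PDPN+ cells. At a mean of at least 10 CPM, 7 of 10 listed genes were lower, beside 16.2% of all genes, and 2 were higher, beside 20%. The 2 higher were Dst and Krt5, the latter at 18.4 against 3.03 CPM. Epithelial cadherin (Cdh1) stood at 0.861 against 37 CPM, and the desmosomal cadherin Dsg2 at 16.6 against 238 CPM, above its 65.1 CPM in PDPN+ cells. Of 4 epithelial junction genes Dsg2 was thus lower, and the tight junction scaffold Tjp1, also present in endothelium, was higher, at 249 against 123 CPM, a call lost with total counts. Cald1, a contractile gene of myoepithelium and smooth muscle, stood at 67.6, 149 and 1313 CPM in the CD36+, double-negative and PDPN+ libraries, while Acta2, the smooth muscle actin, stood at 36.98 and 38.4 CPM in the pair. Luminal genes were close, with the keratins Krt18 and Krt8 at 131 and 145 and at 122 and 84.4 CPM and 0 of 3 genes called. The part of epithelial cells in the other genes that were lower was not tested.

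Capillary endothelial genes were higher in CD36+ cells. Of 20 listed genes 9 reached the level minimum, 5 were higher, the sort gene Cd36 among them, and 0 lower, with a median log2 ratio of 1.03. Without Cd36, a choice made after seeing the data, 4 of 8 were higher and the median was 0.86. Of all genes tested 8.84% were higher. At a mean of at least 10 CPM, where 20% of all genes were higher, 9 of 16 were higher and 0 lower. Fabp4 (chromosome 3, 10204088 to 10208576, minus strand), the fatty acid binding protein of capillaries and adipocytes, stood at 5286 CPM in CD36+ cells, 2119 in double-negative cells and 46.5 in PDPN+ cells (2.49-fold, 2.48 to 2.51). Rgcc, a cell cycle regulator known from capillary cells, stood at 423, 137 and 26.1 CPM (3.08-fold). The water channel Aqp1 stood at 1582, 775 and 23.4 CPM, and its ratio of 2.04 fell under 2-fold with total counts and by TPM. Ly6c1, a surface protein also found on fibroblasts, stood at 332 against 144 CPM. Cav1 and Kdr, a VEGF receptor, were within 2-fold, at 772 and 822 and at 298 and 223 CPM. Below the level minimum, Gpihbp1, which holds lipoprotein lipase on the capillary wall, stood at 130.1 against 25 CPM (5.204-fold, 4.903 to 5.53), Btnl9 at 72.1 against 1.58 CPM, and the carbonic anhydrase Car4 at 50.5 CPM against 0 counts, at least 849-fold higher. Apart from Cd36, none of these genes was part of the gate.

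Genes of fatty acid uptake and storage overlapped with that list through Cd36 and Fabp4 and went the same way. Of 7 genes at the level minimum, 4 were higher and 1 lower (median log2 ratio 1.09). Without Cd36 3 of 6 were higher and 1 lower, with a median of 0.997. At a mean of at least 10 CPM, where 20% of all genes were higher, 12 of 20 were higher and 2 lower. Plin2, which coats lipid droplets, stood at 342 CPM in CD36+ cells, 121 in double-negative cells and 250.5 in PDPN+ cells (2.84-fold, 2.76 to 2.92). Hilpda, an inhibitor of droplet lipolysis, stood at 246 against 116 CPM, a call lost with total counts, and Angptl4, an inhibitor of lipoprotein lipase, at 893 against 476 CPM, within 2-fold. At lower levels, the nuclear receptor Pparg stood at 87.2 against 33.8 CPM, the lipoprotein receptor Scarb1 at 117 against 33.99 CPM and Pdk4, which spares glucose when fat is burned, at 63.9 against 6.97 CPM. The exception at the level minimum was Acsl4, an acyl-CoA synthetase that prefers arachidonate, at 56.3 against 216 CPM and 1292 CPM in PDPN+ cells. Of the 12 adipocyte genes listed 0 reached the level minimum, and they summed to 132 CPM in CD36+ cells and 54.4 in double-negative cells, with the adipocyte hormone Adipoq and the adipsin gene Cfd at 0 counts in both. Fibroblast genes summed to 525 and 283 CPM, with Ly6c1, counted above as a capillary gene, as the 1 member at the level minimum and most of the sum, and their part in the result was not tested. Of the genes of cholesterol and fatty acid synthesis 1 reached the level minimum and was within 2-fold. At a mean of at least 10 CPM, where 16.2% of all genes were lower, 5 of 12 were lower and 0 higher, among them Hmgcs1, a synthase of the same pathway, at 33.95 against 80.5 CPM.

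Venous and venular genes were mostly within 2-fold. Of 12 at the level minimum 1 was higher and 0 lower, with a median log2 ratio of 0.49. Selp, the adhesion molecule P-selectin, stood at 15929 CPM in CD36+ cells and 9067 in double-negative cells, Sele at 1662 and 1133 CPM, Vcam1 at 943 and 927 CPM and Lrg1 at 2216 and 2158 CPM. Nr2f2, the transcription factor of venous identity, stood at 407 and 390.4 CPM. The 1 call was Il1r1, the interleukin 1 receptor, at 393 against 192 CPM, and total counts and TPM each brought it under 2-fold. Of 10 leukocyte adhesion genes 0 were 2-fold apart, including Icam1 at 487 and 511 CPM. Of the 8 genes of the chemokine and cytokine list only Cxcl13 was called, while Csf3, Cxcl1 and Il6 stood at 8621 and 4493, 2595 and 3111 and 2233 and 1522 CPM. Ccl21a and Il1r1, both called above, were counted in other lists. The adhesion and cytokine genes named here, apart from Cxcl13, were thus high in both libraries.

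Genes common to endothelium leaned to the CD36+ library. Of 20 pan-endothelial genes 5 were higher and 1 lower (median log2 ratio 0.54), and 3 were higher by the deposited TPM, where Esam and Fli1 were lost. Beside this list and the VEGF and caveola lists below, 8.84% of all genes tested were higher and 4.68% lower. Their median was 0.20, and by the deposited TPM 6.57% were higher. Tek, the angiopoietin receptor, stood at 274 against 93.9 CPM (2.92-fold, 2.82 to 3.01), the junction protein Esam at 282 against 116 CPM, the ETS factor Fli1 at 429.9 against 204 CPM and Plvap, which forms the diaphragms of fenestrae, at 234 against 96.7 CPM. Clec14a, a lectin-like endothelial receptor, was the member that was lower, at 63.95 against 147 CPM. Of 8 genes of VEGF and Tie signalling 2 were higher, Tek and the coreceptor Nrp1 (262 against 109.5 CPM), and 0 lower. Of 8 caveola genes 3 were higher and 0 lower, namely the coat proteins Cavin1 (629 against 294 CPM) and Cavin2 (379 against 155 CPM) and Plvap, while Cavin3 stood at 234 and 307 CPM. The Cavin1 call was lost with total counts and by TPM. Akap12, a scaffold of protein kinase A, was after Cd36 the widest ratio among higher genes above 1000 CPM in CD36+ cells, at 2211 CPM in CD36+ cells, 716 in double-negative cells and 38.6 in PDPN+ cells (3.09-fold, 3.05 to 3.12). Tspan12, a tetraspanin of Norrin and frizzled signalling, stood at 480.2 against 197 CPM.

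Matrix and signalling genes followed with few calls, to be read beside the 8.84% of all genes tested that were higher and the 4.68% that were lower. Of 12 matrix proteases and inhibitors 2 were higher, the aggrecanase Adamts4 at 839 against 315 CPM and the inhibitor Timp3 at 1518 against 689.8 CPM, the latter lost with total counts and by TPM. Of 6 basement membrane genes 1 was higher, the collagen Col4a2 at 144 against 69.3 CPM, lost in the same settings. Of 3 integrins 1 was lower, Itgav, at 98.95 against 219 CPM. The growth factor gene Igf1 stood at 209 CPM in CD36+ cells, 25.1 in double-negative cells and 23.6 in PDPN+ cells (8.33-fold, 7.86 to 8.83). The Sprouty genes Spry2 and Spry4, feedback inhibitors of receptor tyrosine kinases, stood at 226 against 108 and 128 against 37.7 CPM. The Notch ligand Dll1 stood at 113 against 55.95 CPM and the receptor Tgfbr1 at 125 against 56.7 CPM. Both fell under 2-fold with total counts. The cyclin Ccnd1 was lower, at 59.1 against 228 CPM, while Cdkn1a stood at 1025 and 696 CPM.

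**Figure D4:**
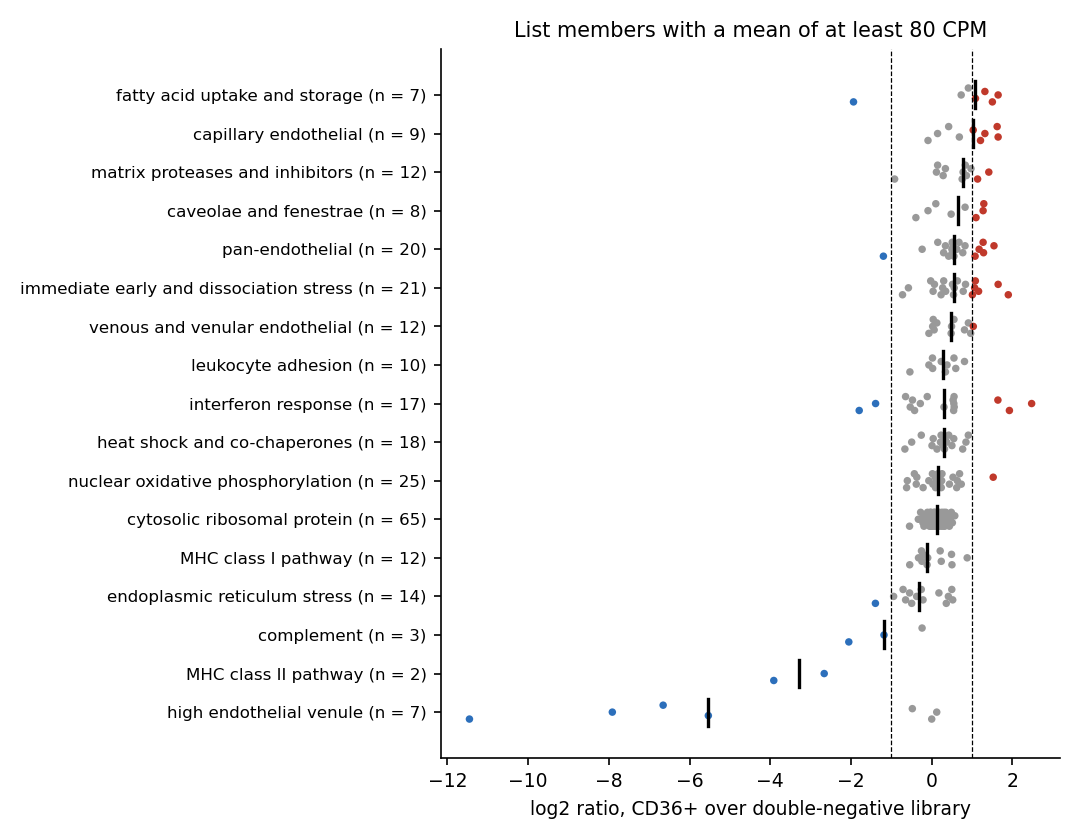
Log2 ratio of the CD36+ over the double-negative library (horizontal axis) for members of 17 gene lists with a mean of at least 80 CPM, 1 point a gene, red for at least 2-fold higher, blue for at least 2-fold lower, with a bar at each median and dashed lines at 2-fold. Medians run from -5.53 for high endothelial venule genes to 1.09 for fatty acid genes, and the 65 ribosomal protein genes lie within 2-fold.

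Immediate early genes, which respond within minutes to growth factors and to tissue digestion, were higher in part. Of 21 at the level minimum 6 were higher and 0 lower (median log2 ratio 0.54), beside 8.84% of all genes tested that were higher. At a mean of at least 10 CPM, where 20% of all genes were higher, 13 of 34 were higher and 0 lower. Egr1 stood at 168 CPM in CD36+ cells, 45.02 in double-negative cells and 64.4 in PDPN+ cells (3.73-fold, 3.56 to 3.91). Ier2 stood at 315, 101 and 258 CPM (3.13-fold). The 4 other calls were Zfp36, Jun, Atf3 and Myc, between 2.01-fold and 2.24-fold, and all 4 fell under 2-fold with total counts, which left 2 calls of 19 genes. By the deposited TPM 3 of 21 were called. Fos, a member of the same class, stood at 92.9 and 153 CPM and Ier3 at 506 and 515 CPM. Hmox1, the inducible heme oxygenase, lay at the threshold, with 2698 against 1345 CPM. Of 18 heat shock genes 0 were 2-fold apart. The labels used here do not say how the handling of these cells differed, and its part in the result was not tested.

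Interferon-response genes were high in both libraries but differed gene by gene. Of 17 at the level minimum 3 were higher and 2 lower, beside 8.84% and 4.68% of all genes tested. The median log2 ratio of 0.30 turned to -0.28 with total counts, where 15 genes were tested, 1 was higher and 2 were lower. Irgm2 (chromosome 11, 58199618 to 58222782, plus strand), an immunity-related GTPase, stood at 140.2 CPM in CD36+ cells, 25.2 in double-negative cells and 1.07 in PDPN+ cells (5.57-fold, 5.25 to 5.92). In GENCODE its 5′ part overlaps the neighbouring GTPase gene Igtp on the same strand, at 325 and 395 CPM, so reads of the shared part may be split in error. Rsad2 (chromosome 12, 26442746 to 26456452, minus strand), the antiviral protein viperin, stood at 127, 33.4 and 0.284 CPM (3.802-fold), and Ifi35 at 190.4, 61.02 and 33.3 CPM (3.12-fold). In the other direction, Tgtp1 (chromosome 11, 48985327 to 48994172, minus strand), a GTPase of the same family as Irgm2, stood at 577, 1512 and 6.33 CPM (2.62-fold lower, 2.59 to 2.65). Its near-identical copy Tgtp2 stood at 1127 and 1629 CPM, so the split of reads between the copies is uncertain. The guanylate-binding protein gene Gbp6 was lower, at 92.1 against 319.8 CPM, and it overlaps the predicted gene Gm43302, also called lower, so their reads cannot be fully told apart. The most abundant member, Iigp1, stood at 4118 and 3335 CPM, and Gbp2, Gbp3, Gbp4 and Gbp7 were also within 2-fold. In every one of the 17 genes the PDPN+ library was the lowest.

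**Figure D5:**
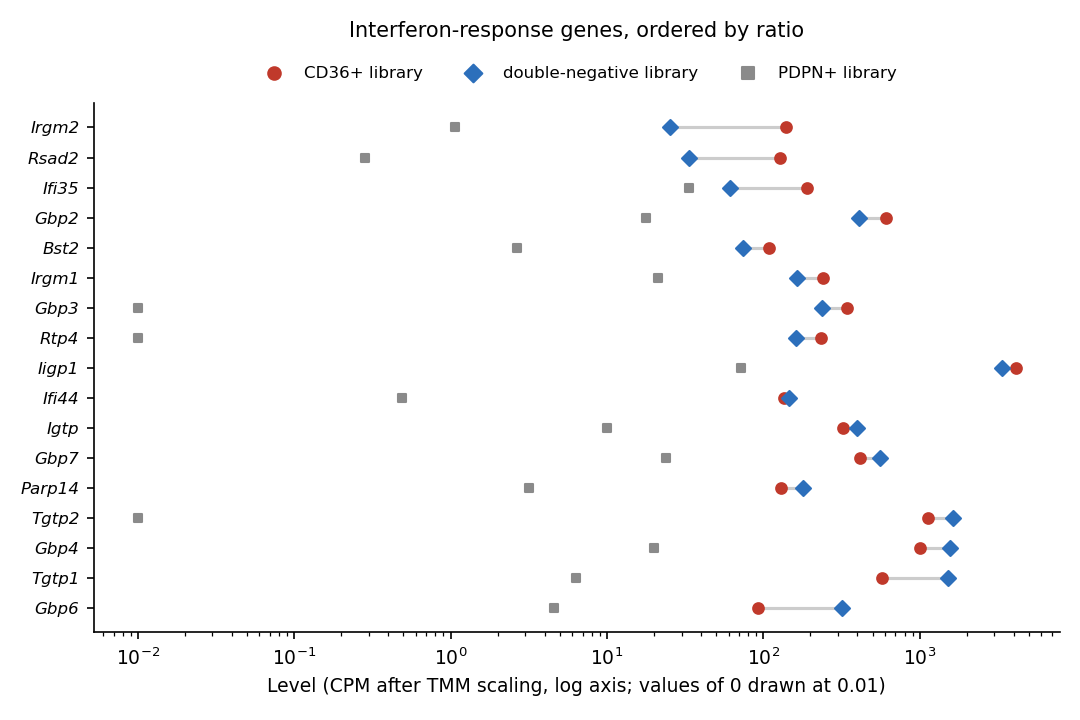
Level in CPM (horizontal log axis) of the 17 interferon-response genes at or above a mean of 80 CPM in the CD36+ (red circle), double-negative (blue diamond) and PDPN+ (grey square) libraries, 1 library each, ordered by ratio. Irgm2, Rsad2 and Ifi35 stand at least 2-fold higher in CD36+ cells, Gbp6 and Tgtp1 at least 2-fold lower, and each grey square lies below the pair.

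Promoters of 3 of these genes are shown because 2 members of 1 GTPase family, Irgm2 and Tgtp1, differed in opposite directions while carrying the same motifs, and Rsad2 gives a second gene that was higher. They are the 250 bases before the start, from RefSeq on GRCm38.p6, 5′ to 3′ on the strand of the gene. Capitals mark an interferon-stimulated response element, searched on both strands as GAAA and GAAA with any 2 bases between, and a gamma-activated site, searched as TTC and GAA with any 3 bases between, which reads the same on both strands.
Irgm2 (chr11:58214727-58214976, plus strand): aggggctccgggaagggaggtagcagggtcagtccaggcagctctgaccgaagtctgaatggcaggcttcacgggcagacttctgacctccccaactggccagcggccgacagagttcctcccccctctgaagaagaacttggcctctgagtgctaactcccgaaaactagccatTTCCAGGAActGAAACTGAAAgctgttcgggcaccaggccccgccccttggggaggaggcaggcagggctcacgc
Tgtp1 (chr11:48992247-48992496, minus strand): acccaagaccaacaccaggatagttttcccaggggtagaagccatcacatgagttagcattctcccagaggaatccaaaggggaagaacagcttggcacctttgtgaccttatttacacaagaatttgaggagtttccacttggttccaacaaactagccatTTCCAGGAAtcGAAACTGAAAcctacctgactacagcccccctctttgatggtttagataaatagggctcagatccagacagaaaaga
Rsad2 (chr12:26456453-26456702, minus strand): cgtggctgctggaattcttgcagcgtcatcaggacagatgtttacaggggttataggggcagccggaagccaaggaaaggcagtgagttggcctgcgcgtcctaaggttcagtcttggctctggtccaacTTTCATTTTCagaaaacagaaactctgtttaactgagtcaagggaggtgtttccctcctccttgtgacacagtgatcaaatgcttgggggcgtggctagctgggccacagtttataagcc

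In Irgm2 the gamma-activated site begins at position -75 and the response element at -64, counted back from the first base of the transcript, and in Tgtp1 they begin at -88 and -77. In both, 2 bases lie between the motifs. A block of 32 bases that holds both motifs has 30 identical bases in the 2 promoters. Rsad2 has the response element on the reverse strand at -120. RefSeq and GENCODE place the starts of Irgm2 and Tgtp1 15359 and 1926 bases apart, so both windows depend on the annotation. Each of these windows lies inside its gene as GENCODE gives it. For Rsad2 the starts are the same. The response element was found in 3.04% of 27018 mouse promoters of this length, in 10 of 161 genes that were higher (6.21%), in 2 of 74 that were lower (2.70%) and in 3.82% of all tested genes with a promoter. The gamma-activated site was found in 7.18% of all promoters, 7.03% of the tested, 8.07% of the higher and 6.76% of the lower genes. Of 3 further motifs, an NF-kappa B motif (GGGA and TTCC with any 2 bases between) was in 1.17% of all, 1.52% of the tested, 1 of 161 higher and 4 of 74 lower genes. The E-box CANNTG, which E proteins such as TCF4 bind, was in 66.1% of all, 53.0% of the tested, 57.1% of the higher and 66.2% of the lower genes. The ETS motif GGAAGT was in 19.99%, 23.3%, 22.4% and 18.9% in the same order. A match describes the letters of the window, not a bound site.

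The 20 widest ratios towards the CD36+ library lay mostly outside the gene lists and at modest levels, with 3 of them under 20 CPM in double-negative cells. Trim30a (chromosome 7, 104409025 to 104465193, minus strand), an interferon-induced ubiquitin ligase, stood at 167 CPM in CD36+ cells, 10.9 in double-negative cells and 0.257 in PDPN+ cells (15.3-fold, 14.03 to 16.7). Idh1, the cytosolic isocitrate dehydrogenase, stood at 150.4, 12.2 and 44.6 CPM (12.3-fold), and Unc50 at 172, 15.2 and 62.9 CPM. Vcl, which encodes vinculin of focal adhesions, stood at 276, 31.8 and 49.7 CPM (8.69-fold, 8.26 to 9.16). In these 4 genes the double-negative library was below the CD36+ library, and for Idh1, Unc50 and Vcl it was also below the PDPN+ library. Others were Trim56, of the same family as Trim30a, at 139 against 32.98 CPM, Dtx3l, a ubiquitin ligase, at 141 against 27.1 CPM, and Ube2j1, a conjugating enzyme of protein disposal at the endoplasmic reticulum, at 143 against 22.1 CPM. Slc1a5, a glutamine transporter, stood at 171 against 41.9 CPM, Sgms1, a sphingomyelin synthase, at 156 against 36.96 CPM, and Ephx1, an epoxide hydrolase, at 134 against 28.1 CPM. The rest (Tox4, Gmfb, Dgkh, Tsc22d2, Spty2d1, Mrpl24, Selenoi and Eapp) were between 4.04-fold and 6.75-fold higher. All 20 stayed at least 2-fold higher by the deposited TPM.

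The title genes were close in the pair. Tcf4 stood at 1190.5 and 1174 CPM and Id3 at 57.6 and 53.5 CPM, and both changed sign with total counts and by TPM. Of the 14 ID and E protein genes and partners listed, 3 reached the level minimum and 1 was called: Tcf12, an E protein that pairs with tissue-specific factors, was lower, at 55.1 against 117 CPM (2.12-fold, 2.03 to 2.21). Below that level, Id1 and Id2 stood at 9.54 against 27.5 and 19 against 39.3 CPM, both lower in CD36+ cells. The third E protein gene, Tcf3, stood at 0.338 against 20 CPM, and the repressor Hes1 at 37.7 against 3.09 CPM. Of 5 genes linked to mammary stem cells, Tspan8 was higher (128 against 39.7 CPM), Dclk1 was lower, and Procr, Foxp1 and Zeb1 were within 2-fold.

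Genes of core cell functions set the scale for these ratios. Of 65 ribosomal protein genes, 11 mitochondrially encoded genes and 17 genes of the actin cytoskeleton 0 were 2-fold apart. Of 25 nuclear genes of oxidative phosphorylation 1 was, Sdha, a subunit of succinate dehydrogenase, at 138 against 48.1 CPM. Of 14 genes of endoplasmic reticulum stress 1 was lower, the sensor Atf6, at 46.3 against 122 CPM, lost by TPM, with a list median of -0.32. RNAs that lack a poly(A) tail, which kits that deplete ribosomal RNA retain, summed to 92.0 CPM in CD36+ cells and 56.3 CPM in double-negative cells, and 9 of 16 found were under 1 CPM in both. Of the hemoglobin genes, Hbb-bs stood at 51.6 CPM and Hba-a2 at 41.9 CPM in CD36+ cells, with 0 counts in the other 2 libraries.

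Transcript length and the third library were read across all 309 genes. By the deposited TPM, which divides by transcript length, 132 of the 202 higher genes and 97 of the 107 lower genes stayed at least 2-fold apart, and 2 and 0 changed sign. With TPM set to the same median as CPM, 168 and 90 stayed. Effective lengths that differed by at least 1.5-fold between the 2 libraries were found for 11 higher and 5 lower genes, against 67 of all tested. The PDPN+ library lay below both others for 92 of the 202 higher genes (45.5%) and 32 of the 107 lower genes (29.9%), against 54.5% of all genes tested, and above both for 24 (11.9%) and 19 genes (17.8%), against 23.6% of all tested. These shares describe the 3 libraries and carry no test.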

How the data were processed

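Estimated counts (NumReads) and TPM for each gene were deposited by the authors for 3 libraries, 1 per sorted population, and were made with Salmon 0.9.1 on mm10, per the submitters' processing notes. The labels' protocols name 2 RNA isolation kits, 2 library kits and 2 sequencers without saying which served which library. Estimated counts were rounded to whole numbers, and gene names came from GENCODE M21, matching 52566 of 52661 identifiers once version suffixes were removed. Unmatched genes held at most 0.00811% of a library.

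Library sizes were scaled by TMM over the 3 libraries (edgeR 4.0.16, R 4.3.3), with factors of 0.875 for the CD36+, 0.987 for the double-negative and 1.16 for the PDPN+ library. Log2 ratios used CPM with a prior count of 2, and folds used CPM without it. Counting intervals are exact (Clopper-Pearson, 95%, SciPy 1.17.1) and cover counting error only, and 0 counts are set against a floor of 3. With 1 library per group no test between groups was possible, and the ratios were checked on simulated counts. The members, the 58 gene lists and the settings were chosen with earlier results of these data known. Named genes are those of the sort and titles, the 20 widest ratios in each direction without predicted genes, and list members at the level minimum that were 2-fold apart or among the 4 most abundant of their list. Members below that level and families grouped by symbol were chosen after their values were seen. Promoters came from RefSeq (GRCm38.p6) for 161 of 202 higher, 74 of 107 lower and 12 of 17 interferon-response genes. Alternatives were other scalings, the deposited TPM, other minimum levels, folds and priors, and a correction for effective length. A few genes that the rule names are not reported here. Single-cell data of the series were not analysed here.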

Additional observations from a re-analysis of the deposited data

How the results depend on the processing

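The numbers of genes at least 2-fold higher and lower in the CD36+ library, 202 and 107 with a median log2 ratio of 0.20, depended on scale and level. Total counts gave 107 higher, 142 lower and a median of 0.0133, a shift of -0.18 in the median of all genes tested. The deposited TPM gave 150 and 145 with a median of 0.054, and ratios centred on their median, added after seeing the data, gave 130 and 156. A mean of at least 40 CPM gave 469 and 309, 160 CPM gave 68 and 33, 10 CPM gave 1417 and 1152, and no minimum gave 3895 and 4346 with a median of -0.0767. A 3-fold threshold gave 52 and 51, and a 4-fold one 20 and 34. Counts stayed within 1.5 times with upper quartile scaling (215 and 128), DESeq2 size factors (202 and 103), TMM over the pair (178 and 98), TPM set to the median of CPM (215 and 113), a length correction (194 and 112), priors of 0.5 (202 and 107) and 10 (201 and 107), all gene biotypes (203 and 110) and intervals wholly past 2-fold (177 and 99). Of 91 named genes that were 2-fold apart, 76 remained so with total counts and 77 by TPM. Those lost in both were Aqp1, Atf3, Cavin1, Col4a2, Fli1, Il1r1, Jun, Myc, Tgfbr1 and Timp3. The causes of these shifts were not tested.

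No paired analysis was possible because each population had 1 library. Leaving out a library was not possible for the same reason, so the spread between samples of a population is unknown and counting intervals understate the error. The kit and sequencer of each library are not named in the labels used here, and these cannot be told apart from the populations. Depth limits genes near the floor of 3 counts, such as Gcnt1, Cxcl13 and Chst4 in the CD36+ library, whose folds have wide intervals.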

Other observations

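Genes of transport through the Golgi were grouped by family after their values were seen. At a mean of at least 80 CPM, 5 of 9 were lower in CD36+ cells and 0 higher. Of all genes tested 4.68% were lower and 8.84% higher. The family had a median log2 ratio of -1.31 beside 0.20 over all genes tested. All of these calls but Arcn1 were under 80 CPM in CD36+ cells and passed the minimum through the double-negative library. At a mean of at least 10 CPM the same family went both ways, with 5 of 24 higher, 7 lower and a median of -0.24. Of all genes at that level 20% were higher and 16.2% lower. Arcn1, the delta subunit of the COPI coat, stood at 175 CPM in CD36+ cells, 589 in double-negative cells and 255 in PDPN+ cells (3.36-fold lower, 3.29 to 3.44). The Golgi stacking gene Gorasp2 stood at 46.2 against 135 CPM, the golgin gene Golga4 at 67.5 against 176 CPM, and the tethering genes Trappc4 and Trappc13 at 47.7 against 132 and 60.1 against 149 CPM. The other COPI genes that reached the level minimum were within 2-fold, with Copb1 at 139 and 180.1 CPM and Cope at 155 and 168 CPM. Below that level COPI genes went both ways. Copz2 was lower, at 10.3 against 44.9 CPM. Copz1 and Copg2 were higher, at 39.4 against 17.8 and 17.5 against 6.5 CPM, while Copa and Copg1 were within 2-fold. Genes of protein entry into the endoplasmic reticulum went both ways within complexes, with 2 of 14 higher and 3 lower, beside 8.84% and 4.68% of all genes tested. Of the translocon-associated proteins, Ssr1 was higher at 213 against 106 CPM and Ssr4 lower at 73.1 against 158 CPM, and of the membrane complex genes Emc4 was higher at 178 against 73.6 CPM and Emc6 lower at 70.02 against 147 CPM.

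Genes of nuclear import and of cohesin, also grouped after seeing the values, held calls in 1 direction at a mean of at least 80 CPM. All of these calls but Kpna1 were under 80 CPM in double-negative cells. Of 9 importins 3 were higher in CD36+ cells, Kpna1 (351 against 128 CPM), Kpna4 and Ipo5, and 0 were lower. Of all genes tested 8.84% were higher. At a mean of at least 10 CPM the importins went both ways, with 5 of 16 higher and 1 lower, Ipo9, at 12.5 against 75.9 CPM. Of all genes at that level 20% were higher and 16.2% lower. Of 5 cohesin genes Rad21 (189 against 70.9 CPM) and Stag2 were higher, while Smc1a and Smc3 stood at 145 and 125 and at 196 and 174 CPM. All 3 genes of the TRIM family with a mean of at least 80 CPM were higher, beside 8.84% of all genes tested. This family was also grouped after seeing the values, and all 3 were under 80 CPM in double-negative cells. At a mean of at least 10 CPM, 11 of 24 were higher and 4 lower, beside 20% and 16.2% of all genes at that level. Of the Toll-like receptor and adaptor genes 0 of 3 were 2-fold apart at a mean of at least 80 CPM. At a mean of at least 10 CPM, where 20% of all genes were higher, 5 of 11 were higher and 1 lower. Of the sensors and signalling genes at low levels Myd88 stood at 50.5 against 5.59 CPM, Nod1 at 46.1 CPM against 2 counts and Tlr3 at 30.9 against 1.58 CPM. In contrast, Irak2 stood at 0.591 against 24.6 CPM and Tlr4 at 32.8 and 33.9 CPM. Among all protein-coding genes 46.0% were 2-fold apart between 20 and 40 CPM, and 60.9% between 10 and 20 CPM.

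Of 8 pairs of called genes lying within 50 kb of each other, 4 went the same way. Birc2 and Birc3 were both lower, as were the overlapping Gm43302 and Gbp6, and Dtx3l with Kpna1 and Xiap with Stag2 were both higher. Idh1 and Pikfyve, 182 bases apart on chromosome 1, went opposite ways, with Pikfyve at 107 against 225 CPM.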
